A study of Homo sapiens with 9 samples.

Results

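The third of 3 RNA sequencing experiments in U-2 OS, a line from a human bone tumour (osteosarcoma), is described here across all genes. Its members were chosen by the number in the sample labels: the 3 libraries of experiment 3 (NTC 3, crXCR1 3 and crSUGP1 3) out of 9, compared with the 6 libraries of experiments 1 and 2. Every culture had received Cas9 as mRNA and 1 synthetic guide RNA, and each experiment held 1 library per guide. The NTC guide has no intended target in the genome. The crXCR1 guide cuts XCR1, a chemokine receptor gene of dendritic cells, and controls for a DNA break. The crSUGP1 guide cuts SUGP1, which encodes an RNA-binding protein of the spliceosome. All cultures were grown in McCoy's 5A medium with serum, each in a flask of its own, and the libraries come from pools of treated cells, not from clones. The sources used here state no difference between the experiments in passage, seeding, time in culture, extraction or sequencing run, so such differences cannot be told apart from one another, and they would coincide with the number of the experiment. Because the 3 libraries come from 1 experiment, the p-values below measure the spread between libraries and not the spread between repeated experiments.

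Adherent cells in culture pass between a growing and a resting state. In growing cells MYC drives the building of ribosomes, and the transcription factor ATF4 drives the import and synthesis of amino acids. When growth factor signalling falls, FOXO transcription factors enter the nucleus and activate genes that slow the cell cycle and spare glucose. Cells of the osteoblast lineage, from which osteosarcomas arise, also lay down a collagen matrix and cut it with secreted metalloproteases, and they release inflammatory cytokines under the control of NF-kB. The gene groups below follow these programmes. In RNA from a whole culture, fewer cells of one kind and less RNA per cell cannot be told apart.

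SUGP1 was at 6.52 CPM (the count relative to the TMM-scaled total of its library) in crSUGP1 3, against 28.3 CPM in NTC 3 and 28.2 CPM in crXCR1 3, and in the other experiments it stood at 7.88 and 7.69 CPM with its own guide and at 29.0 to 31.6 CPM with the control guides. XCR1 had 14 counts in crXCR1 3 and 1 and 0 in the other libraries of the third experiment, a gene too rarely read to test. The libraries of experiment 3 held 68712738 to 107952835 counts and the other 6 held 71470063 to 97474318 (exact two-sided permutation test within guides, p = 0.667). The share of mitochondrial counts was 4.69% ± 0.098 (SD, n = 3) against 4.42% ± 0.358 (n = 6, exact permutation p = 0.407), and that of the 10 most abundant genes 5.47% ± 0.102 against 5.33% ± 0.216 (exact permutation p = 0.407). With libraries exchanged within each guide, 27 arrangements exist and the smallest p they can give is 0.037. The osteoblast regulator RUNX2 had 1367 to 3004 counts per library, and among markers of later osteoblasts ALPL had 459 to 1477, SPP1 476 to 940 and BGLAP 53 to 94, while SP7 and IBSP had at most 7 and 1. Over 16793 genes, the first principal component held 57.1% of the variance and placed the 3 libraries of the third experiment at 19.2 to 28.4, apart from the other 6 at -19.1 to -1.77. The nearest of those was crXCR1 2. The second component, with 22.8%, set the crSUGP1 libraries apart from both controls.

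**Figure D1:**
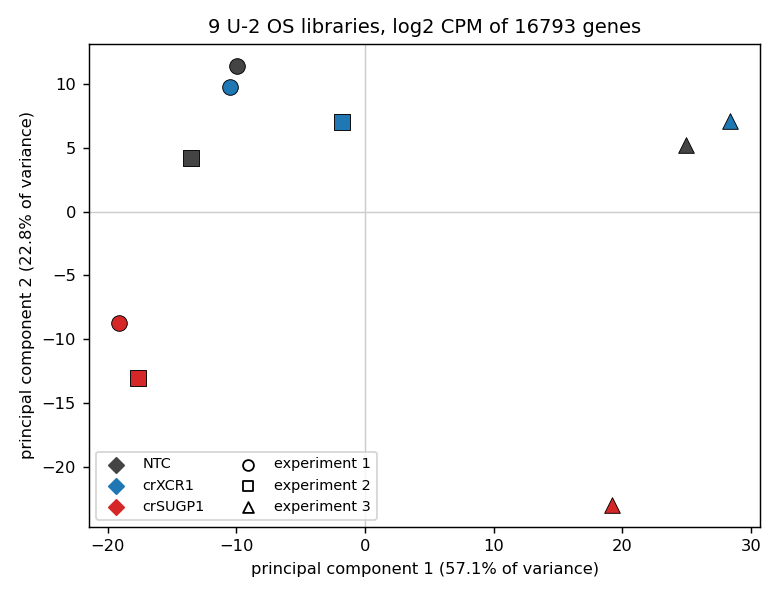
Principal components of log2 CPM over 16793 genes, with 1 point per library, the guide shown by colour and the experiment by shape. The axes give the first component (57.1% of the variance) and the second (22.8%). The 3 libraries of experiment 3 lie at 19.2 to 28.4 on the first component and the other 6 at -19.1 to -1.77.

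Experiment 3 differed from the other 2 in 2215 of 21071 tested genes, of which 1549 were higher and 666 lower (edgeR's quasi-likelihood test with the guide as a block, Benjamini-Hochberg adjustment, thresholds of 0.05 on the adjusted p and 0.5 on the absolute log2 fold change, which is 1.414-fold). These calls are 7.35% and 3.16% of the genes tested. At least a doubling was reached by 288 of the higher genes, and at least a halving by 125 of the lower ones. With experiments 1 and 2 taken apart, 2367 genes were called against experiment 1 (11.2%) and 2001 against experiment 2 (9.5%), comparisons that share the libraries of experiment 3. Called against both, each taken alone, were 1157 genes in the higher and 468 in the lower direction. Experiment 1 against experiment 2 gave 7 genes (0.0332%), with 1806 at an unadjusted p under 0.05. The called genes leaned the same way between these 2 experiments. Of the 1549 genes called higher, 982 (63.4%) were higher in experiment 2 than in experiment 1. Of the 666 called lower, 263 (39.5%) were, against 50.8% of all tested genes. In 1757 of the 2215 genes the 3 libraries lay all above or all below the other 6, as did 6434 of all tested genes (30.5%). As a description of the values the calls rest on, the median log2 difference of the genes called higher was 0.751 within NTC, 0.692 within crXCR1 and 0.767 within crSUGP1, and that of the genes called lower was -0.677, -0.711 and -0.729.

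Most of the called genes had low levels. The median level over the 9 libraries was 1.18 CPM for genes called higher and 1.58 CPM for those called lower, against 11.8 CPM for all tested genes. The median log2 fold change fell with the level, from 0.14 in the 1076 genes of up to 0.25 CPM to -0.097 in the 2286 genes over 100 CPM, while the median over all genes was -0.0011. The value of the lowest class is shaped in part by the filter, which kept genes with log2 CPM over -2 in at least 1 library. A gene of this class was tested only if some library stood above that level. The classes of 1 to 10 and 10 to 100 CPM had medians of 0.066 and -0.029. Long noncoding RNAs made up 24.9% of the tested genes, 25.6% of those called higher and 37.4% of those called lower. Among genes of at least 1 CPM cut into 5 classes of transcript length, the median log2 fold change ran from -0.052 in the shortest to 0.010 in the longest. Library preparation or sequencing as a source of this trend was not tested. Scaling to library totals alone moved the median of all genes to 0.057 and gave 1934 higher and 508 lower calls.

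**Figure D2:**
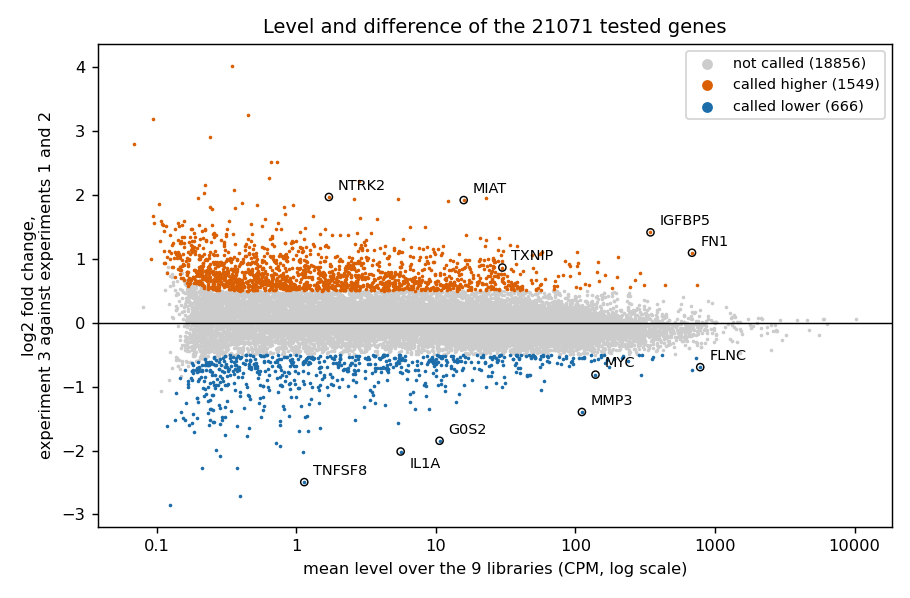
Each point is 1 of the 21071 tested genes, with its mean level over the 9 libraries in CPM on a log axis and its log2 fold change of experiment 3 against experiments 1 and 2. Orange points are the 1549 genes called higher and blue points the 666 called lower, with ringed genes named. The called genes crowd below 10 CPM, and IGFBP5, FN1 and FLNC are among the exceptions.

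Among genes of at least 1 CPM with non-overlapping libraries, the 15 that rose most in the third experiment were NTRK2, A2M, MMP7, SLITRK6, MIAT, CHI3L1, PRSS2, PKHD1, SLC14A1, COL3A1, HTRA1, EGR2, SORCS1, FOLR1 and IGFBP5, with log2 fold changes from 1.41 to 1.96. NTRK2, the receptor of the neurotrophin BDNF (chromosome 9, from 84668551 to 85027054, GRCh38), was at 4.71, 2.19 and 3.36 CPM in NTC 3, crXCR1 3 and crSUGP1 3 and at 0.793 to 0.977 CPM with a median of 0.850 CPM in the other 6 libraries (log2 fold change 1.96 ± 0.15 SE, edgeR adjusted p = 1.75e-07). Each of the 3 values lay above all 6, and the crXCR1 library was the lowest of the 3. A2M, a protease inhibitor of plasma, was at 69.03, 24.7 and 43.1 CPM against 9.08 to 13.6 CPM with a median of 11.2 CPM (log2 fold change 1.94 ± 0.19 SE, edgeR adjusted p = 1.47e-06). CHI3L1, a secreted glycoprotein of cartilage and inflamed tissue, reached 33.1, 15.2 and 23.5 CPM, against 4.78 to 7.48 CPM with a median of 6.30 CPM (log2 fold change 1.90 ± 0.16 SE, edgeR adjusted p = 3.91e-07). For A2M and CHI3L1 too the crXCR1 library of the third experiment was the lowest of the 3, yet above every library of the others. IGFBP5, which binds insulin-like growth factors in the matrix of bone (chromosome 2, from 216672105 to 216695549), was the most abundant of the 15, at 651, 529.6 and 584 CPM against 168 to 298 CPM with a median of 215 CPM (log2 fold change 1.41 ± 0.10 SE, edgeR adjusted p = 1.45e-07). MIAT, a long noncoding RNA, stood at 39.7, 28.01 and 25.2 CPM against 5.33 to 11.4 CPM with a median of 8.61 CPM (log2 fold change 1.91 ± 0.11 SE, edgeR adjusted p = 2.5e-08). MIAT, A2M and IGFBP5 each overlap a gene on the opposite strand, and the sources used here do not state that the counting kept strands apart. SLITRK6 and PKHD1 were at 7.80 to 12.2 CPM and 4.11 to 6.004 CPM in the third experiment, against 1.66 to 4.15 CPM and 1.11 to 2.30 CPM. PRSS2 lies among near-identical trypsinogen genes, whose reads the counting may have divided unevenly.

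By the same rule, the 15 genes that fell most were TNFSF8, BCL2A1, IL1A, G0S2, COL19A1, IL13RA2, MPP4, IL24, MIR4280HG, MMP3, DPF3, LINC00520, ADGRF5, MMP1 and MYCT1, with log2 fold changes from -2.49 to -1.27. TNFSF8, the ligand of CD30 (chromosome 9, from 114893343 to 114930595), was at 0.261, 0.206 and 0.397 CPM in NTC 3, crXCR1 3 and crSUGP1 3 and at 1.21 to 1.82 CPM with a median of 1.56 CPM elsewhere (log2 fold change -2.49 ± 0.18 SE, edgeR adjusted p = 1.4e-07). BCL2A1, a BCL2 relative that NF-kB activates, was at 0.521, 0.197 and 0.411 CPM against 1.05 to 1.96 CPM with a median of 1.41 CPM (log2 fold change -2.02 ± 0.17 SE, edgeR adjusted p = 3.58e-07). Both genes had low counts, and all 3 libraries lay below the other 6. G0S2, an inhibitor of the fat-cleaving enzyme ATGL, was at 3.93, 3.30 and 4.32 CPM against 10.4 to 18.3 CPM with a median of 13.6 CPM (log2 fold change -1.85 ± 0.074 SE, edgeR adjusted p = 1.82e-09), the smallest SE of the 15. DPF3, a subunit of the BAF chromatin remodelling complex, stood at 4.19, 3.52 and 2.76 CPM against 6.04 to 11.1 CPM with a median of 9.48 CPM (log2 fold change -1.35 ± 0.085 SE, edgeR adjusted p = 4.61e-08). MMP3 and MMP1 are described with the metalloproteases. IL24 and IL13RA2, a cytokine and a decoy receptor of interleukin 13, were at 1.05 to 1.29 CPM and 0.511 to 0.666 CPM in the third experiment and at 3.01 to 3.65 CPM and 1.24 to 2.81 CPM in the others. COL19A1 and MIR4280HG were at 0.412 to 0.586 CPM and 0.484 to 0.673 CPM, against 1.45 to 1.74 CPM and 1.117 to 1.78 CPM. The plot of within-guide differences gives the size of each difference by guide, since one direction within every guide is fixed by the choice of genes whose libraries did not overlap.

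**Figure D3:**
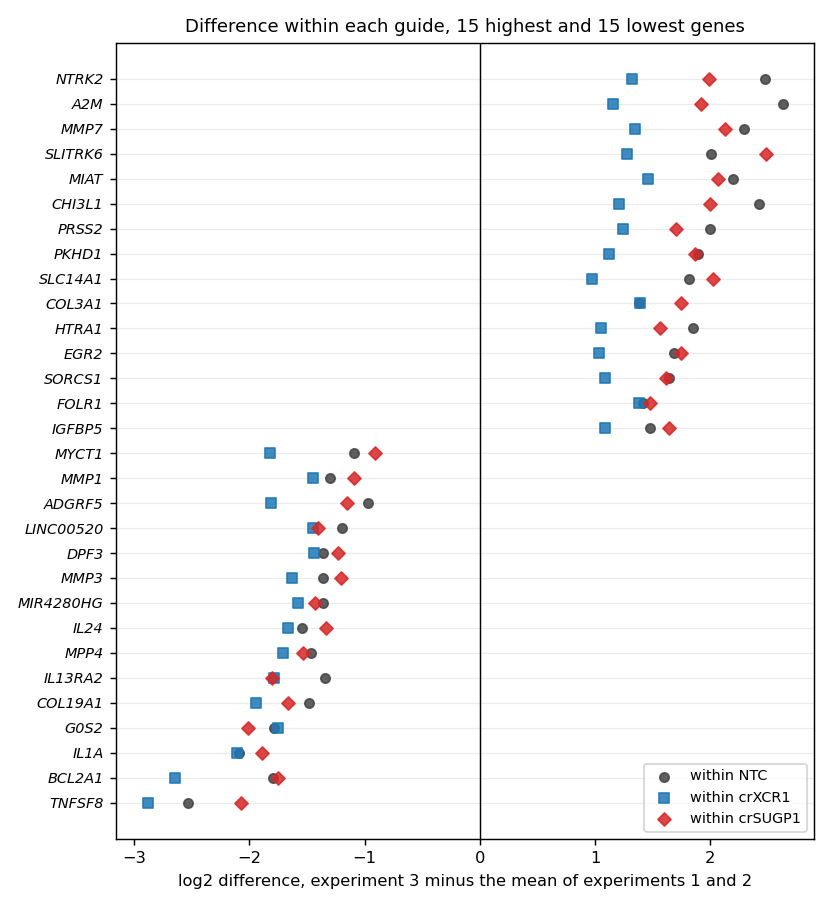
For each of the 15 highest and 15 lowest genes, the log2 difference between experiment 3 and the mean of experiments 1 and 2 is shown within the NTC, crXCR1 and crSUGP1 guides, 1 point per guide. The genes were chosen for libraries that did not overlap, which fixes the side of 0 on which the points lie. For NTRK2 and A2M the crXCR1 point is nearest to 0.

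Among the called genes of highest mean level, both directions occurred. By rule the 10 most abundant are FLNC, COL1A1, SLC7A5, TGM2, FN1, TIMP1, ODC1, SDC4, CCN1 and IGFBP5, of which COL1A1, FN1, TIMP1 and IGFBP5 were higher and the other 6 lower. TGM2, which crosslinks matrix proteins, was at 474, 425 and 524 CPM against 651 to 922 CPM with a median of 773 CPM (log2 fold change -0.74 ± 0.051 SE, edgeR adjusted p = 8.85e-08). FLNC, an actin crosslinker of stressed and muscle cells, was at 610.4, 601 and 459 CPM against 847 to 946 CPM with a median of 891 CPM (log2 fold change -0.70 ± 0.056 SE, edgeR adjusted p = 2.81e-07). SDC4, a heparan sulphate receptor of focal adhesions, was at 262, 247 and 311 CPM against 303 to 477 CPM with a median of 391 CPM (log2 fold change -0.55 ± 0.088 SE, edgeR adjusted p = 0.000135), so that its groups overlapped. Without NTC replicate 1, NTC replicate 3 or crXCR1 replicate 1, the value for SDC4 was -0.497, -0.49 and -0.49, under the fold threshold.

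The growth arrest and FOXO list had the largest share of higher calls among the 41 gene lists counted. Of 28 tested members, 14 were higher and 1 lower, and the median of all 28 was 0.44 on the log2 scale, against 7.35% higher and 3.16% lower over all tested genes. TXNIP, which blocks glucose uptake and binds thioredoxin, was at 43.6, 43.4 and 40.99 CPM in NTC 3, crXCR1 3 and crSUGP1 3 and at 20.8 to 29.3 CPM with a median of 22.4 CPM in the other 6 libraries (log2 fold change 0.86 ± 0.059 SE, edgeR adjusted p = 8.11e-08). TRIB2, a pseudokinase, was at 157, 135 and 168 CPM against 71.7 to 89.4 CPM with a median of 79.2 CPM (log2 fold change 0.93 ± 0.064 SE, edgeR adjusted p = 8.92e-08). CCNG2, an unusual cyclin of non-dividing cells, stood at 55.5, 57.5 and 61.99 CPM against 29.4 to 39.5 CPM with a median of 32.6 CPM (log2 fold change 0.80 ± 0.060 SE, edgeR adjusted p = 1.58e-07). None of the 3 genes overlapped between the groups. PDK4, which holds pyruvate back from the mitochondria, was at 3.25, 2.47 and 3.22 CPM against 1.14 to 1.93 CPM with a median of 1.40 CPM (log2 fold change 1.03 ± 0.13 SE, edgeR adjusted p = 1.82e-05). PIK3IP1, an inhibitor of PI3 kinase, and SESN3, an inhibitor of mTORC1, were higher by 0.98 ± 0.079 and 0.95 ± 0.081 (SE) on the log2 scale, and the 7 higher members not named here by 0.50 to 0.78. CDKN2B, the CDK4 inhibitor p15, was at 4.19, 3.82 and 3.77 CPM against 1.78 to 2.38 CPM with a median of 2.01 CPM (log2 fold change 0.93 ± 0.094 SE, edgeR adjusted p = 2.1e-06). PDK4 and CDKN2B, too, lay above all 6 other libraries with each guide. CDKN1B, the CDK2 inhibitor p27, differed by 0.37 ± 0.040 (SE, edgeR adjusted p = 3.71e-06), under the fold threshold. KLF2, the single member that was lower (-0.51), lost its call without NTC replicate 1, crSUGP1 replicate 2 or crSUGP1 replicate 3, at -0.495, -0.47 and -0.36. TXNIP, TRIB2, CCNG2, CDKN1B and KLF2 were named after their values were seen.

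The forkhead element GTAAACA, the DNA motif of FOXO proteins, was searched on both strands in the 250 bases before the RefSeq start of each gene (GRCh38.p14). It was found in 3 of 27 members with a promoter and in 2 of the 14 called members with a promoter, TXNIP and TRIB2, against 2.98% of 27305 promoters. As the list was drawn up partly from FOXO targets, a share above all promoters can follow from that choice. Motifs of other lists were searched too. The heat shock list, without a call, held its element GAANNTTC in 8 of 15 promoters, against 5.85%. Activity of FOXO proteins was not tested. These sequences are shown because TXNIP and TRIB2 are the called members that carry it, with the element in capitals and 5′ to 3′ on the strand of the gene. The element of TXNIP begins 124 bases before the start, within chr1:145996672-145996728 on the minus strand, and that of TRIB2 begins 249 bases before it, reads on the opposite strand and lies within chr2:12716686-12716718 on the plus strand.
TXNIP: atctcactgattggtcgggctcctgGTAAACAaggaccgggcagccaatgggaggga
TRIB2: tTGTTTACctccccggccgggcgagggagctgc

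Calls among genes of ribosome building were all in the lower direction. Of the 27 tested members of the list of ribosome biogenesis and MYC targets, 7 were lower and none higher by edgeR's test (3.16% of all genes were lower). The median of the list was -0.42 on the log2 scale, and 26 of 27 lay below 0, the same number with an unadjusted p under 0.05. DESeq2 called 6 members lower, library totals alone left 3, and cyclic loess with limma 2, and none was higher with any of them. MYC itself was at 101, 90.02 and 86.2 CPM in the third experiment and at 139 to 174 CPM with a median of 167 CPM in the others (log2 fold change -0.81 ± 0.065 SE, edgeR adjusted p = 2.67e-07), with no overlap. RRP12, an export factor of both ribosomal subunits, was at 58.6, 52.4 and 60.7 CPM against 78.2 to 95.8 CPM with a median of 89.6 CPM (log2 fold change -0.64 ± 0.045 SE, edgeR adjusted p = 9.85e-08). RRS1, RRP9 and MYBBP1A, proteins of the nucleolus, were lower, at -0.60, -0.56 and -0.55. RRP12, RRS1, RRP9 and MYBBP1A each lay below all 6 other libraries. MYBBP1A was at -0.48 without crSUGP1 replicate 3, short of the fold threshold. The 3 other members, NOP16, LYAR and ODC1, the first enzyme of polyamine synthesis, stood at -0.51, -0.52 and -0.50, and each lost its call when single libraries were left out. ODC1 was at -0.47 without NTC replicate 2, -0.48 without crXCR1 replicate 1 and -0.47 without crXCR1 replicate 3. NOP16 was at -0.497, -0.49 and -0.44 without crXCR1 replicate 1, crSUGP1 replicate 2 and crSUGP1 replicate 3, and LYAR was at -0.48 without NTC replicate 3. None of the 44 ribosomal protein genes was called by edgeR in either direction, with log2 fold changes from -0.31 to 0.081 and 17 below 0 at an unadjusted p under 0.05. DESeq2 and limma called none of them. MYC, NOP16 and LYAR were named after their values were seen.

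The ATF4 list likewise held lower calls alone. Of 35 tested members 6 were lower (3.16% over all tested genes) and none was higher by edgeR. The median stood at -0.26 on the log2 scale with 31 members below 0. At an unadjusted p under 0.05, 28 were below 0 and 1 above. DESeq2 called 6 lower, limma after cyclic loess 3, and neither any higher. Without crSUGP1 replicate 3, 3 members were lower. SLC7A5, the importer of large neutral amino acids (chromosome 16, from 87830023 to 87869507), was at 559, 529 and 576 CPM against 688 to 957 CPM with a median of 796 CPM (log2 fold change -0.55 ± 0.053 SE, edgeR adjusted p = 1.38e-06). SLC7A11, which exchanges cystine for glutamate, was at 22.8, 22.8 and 35.6 CPM against 32.8 to 53.2 CPM with a median of 34.95 CPM (log2 fold change -0.56 ± 0.045 SE, edgeR adjusted p = 2.81e-07). For SLC7A11 the crSUGP1 library of experiment 3 overlapped the NTC and crXCR1 libraries of the others, and within the crSUGP1 guide it was the lowest. CHAC1, which degrades glutathione, was at 6.55, 6.14 and 8.52 CPM against 8.07 to 17.1 CPM with a median of 9.65 CPM (log2 fold change -0.65 ± 0.086 SE, edgeR adjusted p = 2.37e-05). STC2, a secreted stanniocalcin, was at 0.847, 0.950 and 1.28 CPM against 1.41 to 2.34 CPM with a median of 1.80 CPM (log2 fold change -0.86 ± 0.11 SE, edgeR adjusted p = 2.2e-05). STC2 did not overlap between the groups, while CHAC1 did. SLC1A5, a glutamine importer, and TRIB3 stood at -0.51 and -0.51. SLC7A5 without crSUGP1 replicate 3 was at -0.47, and without 1 library each SLC1A5 and TRIB3 went as close to 0 as -0.46 and -0.42, both without crSUGP1 replicate 3. Without crXCR1 replicate 1 or crSUGP1 replicate 1 the same 2 genes were at -0.496 and -0.499 for SLC1A5 and -0.48 and -0.49 for TRIB3. SLC1A5 was at -0.496 without NTC replicate 1, and TRIB3 at -0.495 without crSUGP1 replicate 2. ATF4 itself was at 363, 364 and 412 CPM against 418 to 507 CPM with a median of 438 CPM, and the difference of -0.26 ± 0.038 (SE, edgeR adjusted p = 6.79e-05) was under the fold threshold. ASNS, asparagine synthetase, differed by -0.42 ± 0.045 (SE), also under the threshold. SLC1A5, TRIB3, ATF4 and ASNS were named after their values were seen.

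Genes of cell division were not called. None of 30 tested genes of S phase and none of 32 genes of mitosis passed the thresholds of edgeR's test, with log2 fold changes from -0.20 to 0.14 and from -0.24 to 0.10. At an unadjusted p under 0.05, 3 genes of S phase were above and 8 below 0, and 9 genes of mitosis were below 0. DESeq2 and limma after cyclic loess called none of either list. Their medians were -0.044 and -0.049, and both became positive with library totals alone or cyclic loess scaling. Of 37 tested p53 targets 1 was called, TP53INP1, at 27.3, 33.3 and 38.5 CPM against 17.3 to 25.5 CPM with a median of 23.1 CPM (log2 fold change 0.56 ± 0.055 SE, edgeR adjusted p = 1.49e-06). One of 34 replication-dependent histone genes, H3C6, was called higher (0.57), and it was at 0.46 without crSUGP1 replicate 3. The shares of higher calls among p53 targets and histone genes are both under the 7.35% of all tested genes.

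Collagens and their partners were the list with the most higher calls. Of 56 tested members 19 were higher and 2 lower, against 7.35% and 3.16% of all tested genes, and the median was 0.35 on the log2 scale. In 29 of the 56 the libraries of the third experiment lay above all others and in 4 below, against 30.5% of all tested genes in either direction. FN1, fibronectin (chromosome 2, from 215360440 to 215436073), was at 1227, 859 and 1098 CPM in NTC 3, crXCR1 3 and crSUGP1 3 and at 431 to 550.2 CPM with a median of 502 CPM in the other libraries (log2 fold change 1.09 ± 0.080 SE, edgeR adjusted p = 1.33e-07). COL3A1, a fibrillar collagen of soft tissues, was at 14.5, 16.5 and 13.2 CPM against 3.44 to 7.13 CPM with a median of 5.47 CPM (log2 fold change 1.5004 ± 0.090 SE, edgeR adjusted p = 3.83e-08). COL1A1, the main collagen of bone, was at 973, 1017 and 886 CPM against 554 to 715 CPM with a median of 632 CPM (log2 fold change 0.59 ± 0.049 SE, edgeR adjusted p = 3.59e-07). LUM and BGN, small proteoglycans that bind collagen fibrils, were at 3.32 to 3.71 CPM and 1.38 to 1.57 CPM in the third experiment, against 1.15 to 1.69 CPM and 0.513 to 0.949 CPM. The 14 higher members not named here had log2 fold changes of 0.50 to 0.89. The lower members, LAMB3, a laminin chain of epithelial basement membranes, and COL13A1, a transmembrane collagen, stood at -0.81 and -0.52. LAMB3 was at 203, 184 and 198 CPM against 285 to 379.6 CPM with a median of 346 CPM (log2 fold change -0.81 ± 0.055 SE, edgeR adjusted p = 7.67e-08). COL13A1 without crXCR1 replicate 1 was at -0.49, under the fold threshold. Both were named after their values were seen.

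Metalloproteases and their inhibitors split by direction. Of 34 tested genes 7 were higher and 5 lower, against 7.35% and 3.16% of all tested genes. A cluster on chromosome 11 held both: MMP7, MMP10 and MMP13 were higher and MMP1 and MMP3 lower, between 102520508 and 102955732. MMP7, matrilysin, was at 6.28, 3.79 and 5.19 CPM in the third experiment and at 0.863 to 1.86 CPM with a median of 1.31 CPM in the others (log2 fold change 1.93 ± 0.17 SE, edgeR adjusted p = 6.59e-07). MMP13, a collagenase of bone and cartilage, was at 4.92, 3.80 and 6.29 CPM against 1.49 to 3.27 CPM with a median of 1.82 CPM (log2 fold change 1.26 ± 0.15 SE, edgeR adjusted p = 1.17e-05). Neither gene overlapped between the groups. MMP3, stromelysin, had 53.6, 42.3 and 65.3 CPM against 115 to 177 CPM with a median of 133 CPM (log2 fold change -1.40 ± 0.12 SE, edgeR adjusted p = 4.87e-07), and MMP1, the interstitial collagenase, 2.45, 1.83 and 2.395 CPM against 4.17 to 7.03 CPM with a median of 5.32 CPM (log2 fold change -1.28 ± 0.14 SE, edgeR adjusted p = 3.14e-06). Here the libraries of the third experiment lay below all others. MMP10 was higher by 0.88 on the log2 scale, at a low level of 0.394 to 0.608 CPM, against 0.179 to 0.353 CPM. Outside the cluster, the gelatinases MMP9 and MMP2 were higher: MMP9 was at 81.6, 46.8 and 57.2 CPM against 21.9 to 34.9 CPM with a median of 25.6 CPM (log2 fold change 1.20 ± 0.12 SE, edgeR adjusted p = 1.47e-06), and MMP2 at 278, 271 and 253 CPM against 146 to 179 CPM with a median of 159 CPM (log2 fold change 0.72 ± 0.053 SE, edgeR adjusted p = 1.4e-07). In both gelatinases the groups did not overlap. TIMP1, an inhibitor of metalloproteases, was at 596, 436 and 654 CPM against 349 to 411 CPM with a median of 368 CPM (log2 fold change 0.58 ± 0.066 SE, edgeR adjusted p = 5.83e-06). The other lower members were the secreted proteases ADAMTS6 and ADAMTS1 and urokinase, PLAU, with ADAMTS6 at 16.6 to 23.2 CPM against 28.9 to 44.7 CPM. MMP2, MMP9, MMP10, ADAMTS1, ADAMTS6 and PLAU were named after their values were seen.

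Markers of the osteoblast lineage were called in both directions. Of 18 tested members 6 were higher and 2 lower, against 7.35% and 3.16% of all tested genes. The lower ones were ALPL, the phosphatase of mineralizing osteoblasts, and SPP1, osteopontin. ALPL was at 8.41, 7.26 and 6.51 CPM against 10.6 to 15.6 CPM with a median of 13.3 CPM (log2 fold change -0.83 ± 0.12 SE, edgeR adjusted p = 3.87e-05). SPP1 was at 5.91, 4.54 and 6.75 CPM against 7.77 to 11.7 CPM with a median of 9.65 CPM (log2 fold change -0.76 ± 0.13 SE, edgeR adjusted p = 0.000181). The higher ones beside COL1A1 included DLX5 (0.96) and PTH1R (0.87), both at most at 0.367 CPM in any library. PTH1R passed the filter through crXCR1 3 alone, a library of the group in which it was higher. It was not tested without that library, and was tested in 21 of the 24 alternatives. DLX5 had an edgeR adjusted p of 0.0559 without NTC replicate 3. Summed over the list, the members were at 2282 to 2414 CPM in the third experiment and at 1606 to 1941 CPM in the others. COL1A1, itself called higher, makes up much of these sums, with a mean of 743 CPM over the 9 libraries.

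**Figure D4:**
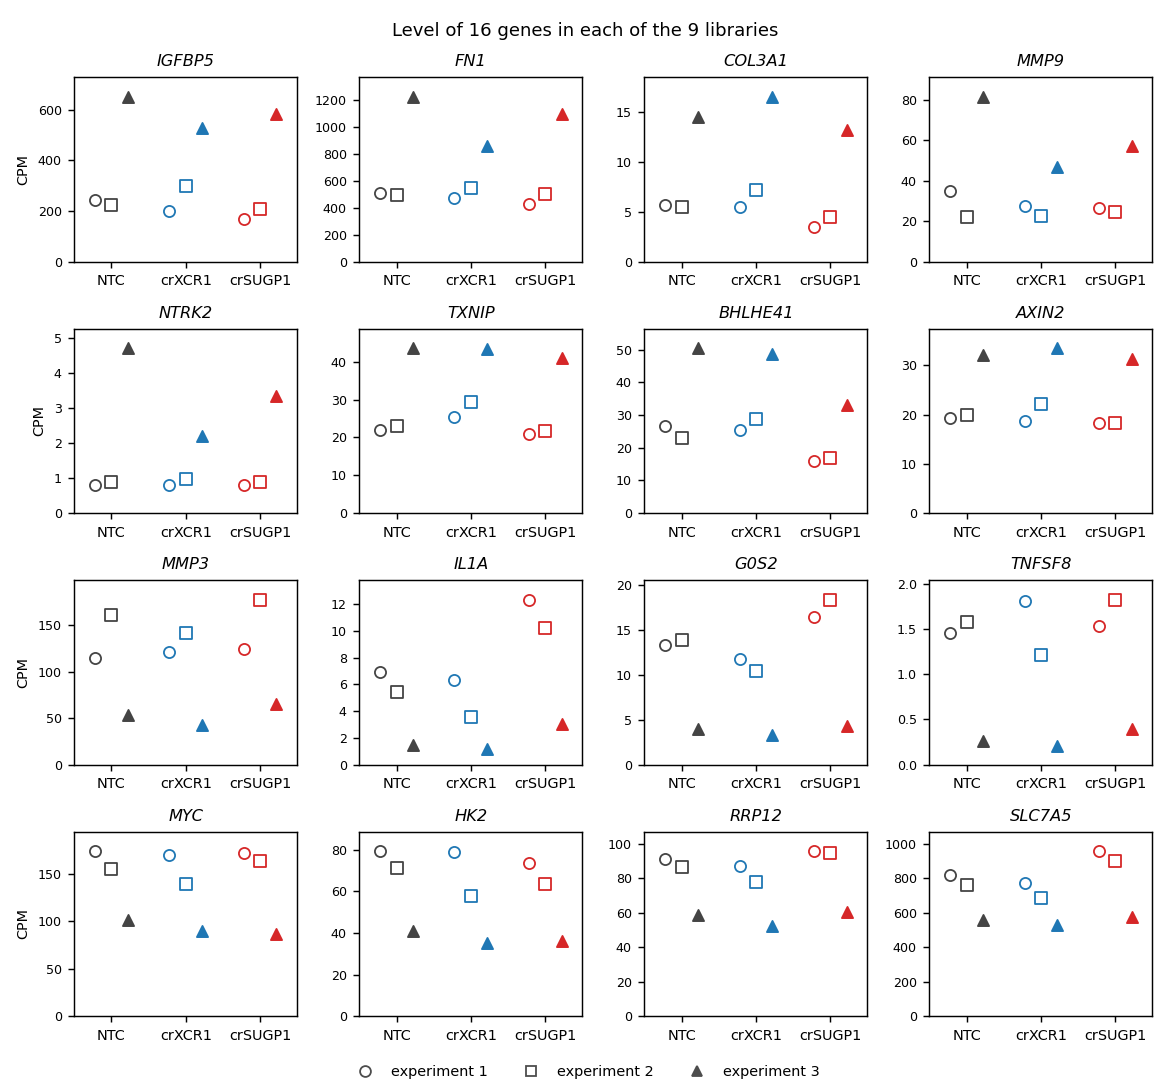
Level in CPM, on axes from 0, of 16 genes in each of the 9 libraries, grouped by guide, with circles for experiment 1, squares for experiment 2 and filled triangles for experiment 3. In the upper 8 panels the triangles of all guides lie above the other libraries of the same gene, and in the lower 8 they lie below. For IGFBP5 the triangles stand at 529.6 to 651 CPM and the other 6 libraries at 168 to 298 CPM.

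A minority of the inflammatory genes was called lower in the third experiment. Of 26 tested NF-kB and inflammatory targets 1 was higher and 7 were lower, against 7.35% and 3.16% of all tested genes. The list's median log2 fold change stood at -0.20, with 19 members below 0 and 7 above. At an unadjusted p under 0.05, 15 were below and 2 above 0. Against experiment 2 alone, 3 were lower. IL1A and IL1B, the genes of interleukin 1, lie next to each other on chromosome 2 between 112773925 and 112836816. IL1A was at 1.45, 1.16 and 3.05 CPM in NTC 3, crXCR1 3 and crSUGP1 3 and at 3.56 to 12.3 CPM with a median of 6.62 CPM elsewhere (log2 fold change -2.02 ± 0.16 SE, edgeR adjusted p = 2.16e-07). Its 3 values lay below all others, while the crSUGP1 libraries were the highest of each experiment. IL1B, under 1 CPM in every library, was at 0.0977, 0.143 and 0.156 CPM against 0.112 to 0.611 CPM with a median of 0.355 CPM (log2 fold change -1.479 ± 0.36 SE, edgeR adjusted p = 0.00362), with overlap. CXCL8, interleukin 8, was at 28.7, 26.7 and 32.1 CPM against 31.6 to 76.9 CPM with a median of 54.2 CPM (log2 fold change -0.83 ± 0.18 SE, edgeR adjusted p = 0.0013), and CSF2, the growth factor GM-CSF, at 4.31, 3.93 and 6.69 CPM against 4.94 to 13.7 CPM with a median of 8.74 CPM (log2 fold change -0.82 ± 0.14 SE, edgeR adjusted p = 0.000283). Both overlapped between the groups. The chemokines CXCL3 and CCL20 had log2 fold changes of -0.71 and -0.58. CSF3, the growth factor G-CSF, was called at -1.62 from 0.0326 to 0.0717 CPM against 0.0279 to 0.295 CPM, and its edgeR adjusted p was 0.184, 0.0981 and 0.116 without NTC replicate 3, crXCR1 replicate 1 and crSUGP1 replicate 3. Both CSF3 and IL1B passed the filter only through libraries of experiments 1 and 2, the group in which they were higher. CSF3 was tested in 21 of the 24 alternatives. CCL20 lost its call without NTC replicate 1 (-0.48) and without NTC replicate 3 (-0.38). The single higher member was TNFAIP6, which binds hyaluronan, at 1.55, 1.40 and 1.52 CPM against 0.558 to 0.906 CPM with a median of 0.607 CPM (log2 fold change 1.17 ± 0.13 SE, edgeR adjusted p = 5.66e-06). The feedback inhibitors NFKBIA and TNFAIP3 differed by 0.10 ± 0.054 and -0.21 ± 0.064 (SE), and neither was called.

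The first and second experiments differed in 7 genes, 2 of them members of the NF-kB list. CXCL8, CSF2, SAA1, SAA2, LCN2, CTSS and MIR3142HG were all higher in experiment 1 than in experiment 2, by log2 differences from 0.53 for SAA1 to 0.77 for CTSS, with edgeR adjusted p-values from 0.00696 to 0.0431. SAA1 and SAA2 encode the acute phase protein serum amyloid A, LCN2 encodes the siderophore-binding lipocalin 2, and CTSS the protease cathepsin S. Of the 7, CXCL8, CSF2, SAA1 and SAA2 were also called lower in experiment 3 against the other experiments together. SAA1 was at 4.63, 4.70 and 12.4 CPM in the third experiment and at 7.10 to 25.2 CPM with a median of 11.8 CPM in the others (log2 fold change -0.98 ± 0.14 SE, edgeR adjusted p = 5.4e-05). Within each guide its order was experiment 1 above 2 above 3, from 11.7 over 8.48 to 4.63 CPM within NTC. CXCL8 had the same order, with 76.9, 52.1 and 28.7 CPM within NTC. Against experiment 2 alone CXCL8 was at -0.45, under the fold threshold. LCN2, CTSS and MIR3142HG were not called in the third experiment, with log2 fold changes of -0.36, -0.16 and -0.31. SAA1 and SAA2 share near-identical sequence, and SAA2 overlaps a readthrough gene on the same strand, so that their reads may have been divided unevenly. CXCL8, CSF2, CXCL3, CCL20, NFKBIA, TNFAIP3 and the genes that differed between experiments 1 and 2 were named after their values were seen.

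Immediate early genes, which cells switch on within minutes of a growth factor signal, were called in both directions. Of 29 tested members 6 were higher and 3 lower, against 7.35% and 3.16% of all tested genes. The zinc finger factors EGR1, EGR2 and EGR3 were higher by 0.72, 1.482 and 0.85. EGR1 was at 105, 90.4 and 109 CPM against 51.6 to 70.9 CPM with a median of 61.8 CPM (log2 fold change 0.72 ± 0.065 SE, edgeR adjusted p = 6.59e-07), and FOS at 14.2, 14.3 and 15.8 CPM against 7.20 to 10.2 CPM with a median of 8.38 CPM (log2 fold change 0.78 ± 0.061 SE, edgeR adjusted p = 2.18e-07). PHLDA1 was at 190.4, 134 and 152 CPM against 62.6 to 85.7 CPM with a median of 71.4 CPM (log2 fold change 1.10 ± 0.085 SE, edgeR adjusted p = 2.04e-07). None of these genes overlapped between the groups. The nuclear receptor NR4A2 was also higher (0.89). Lower beside MYC were FOSL1, a partner of JUN, at 42.1, 37.1 and 47.5 CPM against 58.6 to 74.9 CPM with a median of 63.3 CPM (log2 fold change -0.65 ± 0.042 SE, edgeR adjusted p = 5.74e-08), and DUSP5, a phosphatase of ERK (-0.63). Targets of SRF and YAP, which read the tension of the actin skeleton, had 3 lower and no higher calls by edgeR of 35 tested: FLNC, CCN1 and CRIM1. Over all tested genes 3.16% were lower. At an unadjusted p under 0.05, 8 were above and 19 below 0. DESeq2 called the same numbers, and limma after cyclic loess 1 in each direction. CCN1, a matricellular protein, was at 255, 273 and 268 CPM against 365 to 427 CPM with a median of 403 CPM (log2 fold change -0.58 ± 0.050 SE, edgeR adjusted p = 5.01e-07), and CRIM1 (-0.52) was at -0.49 without crSUGP1 replicate 3. EGR1, FOS, FOSL1 and DUSP5 were named after their values were seen.

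Some targets of Wnt and of TGF-beta signalling were higher. Of 22 tested Wnt and Notch targets 8 were higher and 1 lower, against 7.35% and 3.16% of all tested genes. The median of the list was 0.46 on the log2 scale. Inhibitors of Wnt that the pathway itself induces were among the higher members. RNF43, which removes Wnt receptors, was at 30.4, 30.3 and 29.5 CPM in NTC 3, crXCR1 3 and crSUGP1 3 and at 12.6 to 18.7 CPM with a median of 15.7 CPM in the others (log2 fold change 0.96 ± 0.066 SE, edgeR adjusted p = 9.28e-08). NKD1, which binds Dishevelled, was at 38.7, 37.7 and 39.1 CPM against 17.2 to 24.6 CPM with a median of 20.1 CPM (log2 fold change 0.95 ± 0.080 SE, edgeR adjusted p = 4.39e-07). AXIN2, a scaffold that destroys beta-catenin, was at 32.1, 33.5 and 31.3 CPM against 18.3 to 22.1 CPM with a median of 19.04 CPM (log2 fold change 0.73 ± 0.051 SE, edgeR adjusted p = 9.85e-08). All 3 genes were clear of overlap and nearly level across the guides. NOTUM and LEF1 were higher by 0.91 and 0.63, and the Notch ligand DLL1 by 0.97. DKK1, a Wnt inhibitor read at most at 0.256 CPM, was lower (-1.498 ± 0.30, SE), and was tested in 21 of the 24 alternatives. It passed the filter only through libraries of experiments 1 and 2, the group in which it was higher. Of 25 tested TGF-beta and BMP targets 4 were higher (7.35% over all tested genes) and none lower by edgeR: PMEPA1, ID4, ID2 and SMAD6. At an unadjusted p under 0.05, 16 were above and 4 below 0, and DESeq2 and limma after cyclic loess called 4 and 6 higher and none lower. PMEPA1, an inhibitor of SMAD signalling, was at 407, 366 and 439 CPM against 197 to 254 CPM with a median of 243 CPM (log2 fold change 0.77 ± 0.065 SE, edgeR adjusted p = 4.27e-07). ID2, ID4 and SMAD6 had log2 fold changes of 0.65, 0.65 and 0.60. AXIN2, NOTUM and LEF1 were named after their values were seen.

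Part of the circadian clock was higher as well. The clock is a feedback loop in which CLOCK and ARNTL bind E boxes and switch on their own repressors and the output factors DBP and TEF. Of 20 tested members 7 were higher (7.35% over all tested genes) and none lower by edgeR, with a median of 0.30 on the log2 scale. Without NTC replicate 3, 4 were higher. At an unadjusted p under 0.05, 12 were above and 3 below 0, and DESeq2 and limma after cyclic loess each called 6 higher and none lower. BHLHE41, a repressor of the loop, was at 50.4, 48.7 and 33.01 CPM in the third experiment and at 16.01 to 28.8 CPM with a median of 24.2 CPM elsewhere (log2 fold change 0.96 ± 0.057 SE, edgeR adjusted p = 3.83e-08). The crSUGP1 libraries were the lowest of each experiment for this gene. DBP was at 35.4, 40.4 and 24.3 CPM against 15.7 to 23.8 CPM with a median of 20.3 CPM (log2 fold change 0.73 ± 0.052 SE, edgeR adjusted p = 1.2e-07), and TEF at 41.02, 41.8 and 37.5 CPM against 25.3 to 30.1 CPM with a median of 26.9 CPM (log2 fold change 0.56 ± 0.046 SE, edgeR adjusted p = 2.9e-07). NR1D1, the repressor REV-ERB alpha, stood at 0.51, the nuclear receptor RORB at 0.72 and the deubiquitinase USP2 at 0.56. PER3 differed by 0.47 ± 0.046 (SE), just under the fold threshold. NR1D1 was at 0.47 without NTC replicate 2 and 0.48 without NTC replicate 3, where USP2 was at 0.48, all short of the threshold. CIART, at 0.241 to 0.385 CPM against 0.147 to 0.315 CPM, had an edgeR adjusted p of 0.021, and of 0.0513 to 0.0969 without NTC replicate 1, NTC replicate 3, crXCR1 replicate 2 or crXCR1 replicate 3. TEF, NR1D1, USP2 and PER3 were named after their values were seen.

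The E box CACGTG lay within 250 bases before the start of 5 of 18 clock genes with a promoter and of 3 of the 7 called ones, against 6.49% of 27305 promoters (a palindrome, the same on both strands). The D box TTATGNAA, which DBP and TEF bind, lay in 2 of the 18 and in none of the 7, against 3.15%. As the list was drawn up from clock genes, a share above all promoters can follow from that choice. The windows of the 3 called genes with an E box are shown because they mark the letters that the clock's own activators are known to bind, with the E box in capitals and 5′ to 3′ on the strand of the gene (RefSeq, GRCh38.p14). They come from chr22:41367235-41367290 on the plus strand for TEF, chr12:26125055-26125110 on the minus strand for BHLHE41, and chr1:150282400-150282455 and chr1:150282472-150282527 on the plus strand for CIART, whose second window holds a further E box in lower case.
TEF: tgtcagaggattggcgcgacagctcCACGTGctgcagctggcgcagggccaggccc
BHLHE41: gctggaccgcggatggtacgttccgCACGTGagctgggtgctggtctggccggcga
CIART first: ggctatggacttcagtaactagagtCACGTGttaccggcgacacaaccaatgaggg
CIART second: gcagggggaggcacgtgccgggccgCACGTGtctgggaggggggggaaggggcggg

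**Figure D5:**
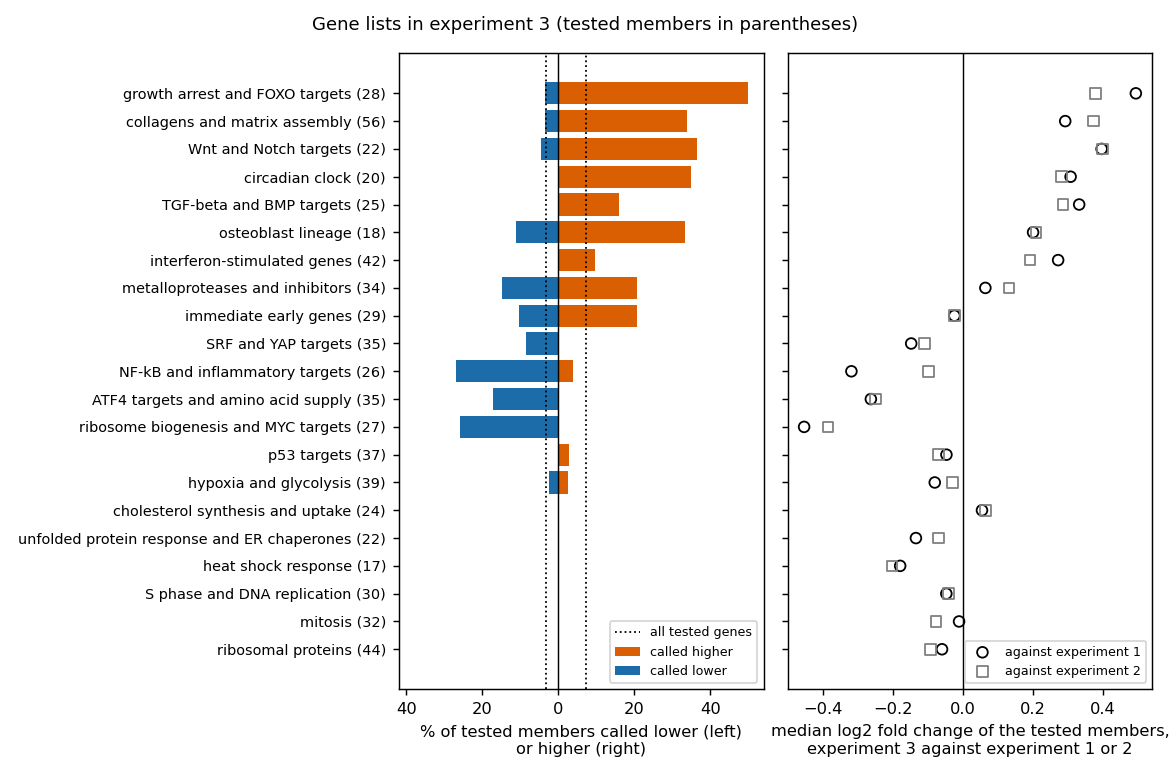
For 21 gene lists, the left panel shows the percentage of tested members called higher (right) or lower (left) in experiment 3, with dotted lines at 7.35% and 3.16% for all tested genes, and the right panel the median log2 fold change of the members against experiment 1 and against experiment 2. Growth arrest and FOXO targets (14 of 28 higher) stand at the top, and the lists of S phase, mitosis and ribosomal proteins hold no call.

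Calls in the metabolic and stress lists are to be read against 7.35% higher and 3.16% lower calls over all tested genes. Of 39 tested genes of hypoxia and glycolysis, 1 was lower and 1 higher. HK2, the inducible hexokinase that commits glucose to glycolysis, was at 41.1, 35.3 and 36.04 CPM against 57.9 to 79.3 CPM with a median of 72.4 CPM (log2 fold change -0.92 ± 0.080 SE, edgeR adjusted p = 5.65e-07), without overlap. CA9, a carbonic anhydrase of hypoxic cells, read at 0.227 to 0.555 CPM in the third experiment and 0.0526 to 0.361 CPM in the others, was higher by 1.05 ± 0.27 (SE). None of the 24 genes of cholesterol synthesis, 22 of the unfolded protein response, 17 of the heat shock response and 13 of the mitochondrial genome was called by edgeR in either direction, with log2 fold changes between -0.44 and 0.48 throughout. At an unadjusted p under 0.05 these lists held 10, 14, 16 and 2 genes, of which 3, 10, 13 and 1 were below 0. The median of the heat shock list was -0.23 on the log2 scale, with 14 of its 17 genes below 0. DESeq2 called none of them. In the heat shock list limma after cyclic loess called 2 genes, 1 in each direction, and edgeR called 1 gene higher without crXCR1 replicate 2, without crXCR1 replicate 3 and with upper quartile scaling or library totals, and 1 lower without crSUGP1 replicate 3. Among 9 LXR targets, the cholesterol exporters ABCA1 and ABCG1 were higher, ABCA1 at 4.18, 4.33 and 4.51 CPM against 2.22 to 2.97 CPM with a median of 2.67 CPM (log2 fold change 0.71 ± 0.088 SE, edgeR adjusted p = 1.47e-05) and ABCG1 by 0.65. PPARGC1A, a coactivator of mitochondrial genes, was at 7.75, 5.77 and 7.44 CPM against 2.61 to 4.40 CPM with a median of 3.30 CPM (log2 fold change 1.03 ± 0.12 SE, edgeR adjusted p = 7.99e-06). It was the single call among 30 nuclear genes of oxidative phosphorylation and their regulators. The median of that list was -0.091 on the log2 scale, with 25 members below 0 and 5 above. At an unadjusted p under 0.05, 15 were below and 1 above 0. Of 42 interferon-stimulated genes 4 were higher, IFITM1, BST2, IFI44L and IFIT1, and 7 with library totals alone. The median of the 42 was 0.20 on the log2 scale, with 31 above 0 and 11 below. At an unadjusted p under 0.05, 25 were above and 3 below 0. BST2, the virus-tethering protein tetherin, was at 2.10, 2.45 and 2.23 CPM against 0.875 to 1.34 CPM with a median of 1.10 CPM (log2 fold change 1.02 ± 0.10 SE, edgeR adjusted p = 1.75e-06). Of 25 NRF2 targets AKR1C3 was higher (0.56) and ABCC2 and AKR1B10 lower (-0.63 and -0.56), and AKR1B10 was at -0.49 and -0.46 without NTC replicate 2 and NTC replicate 3. In the NRF2 list 20 genes lay below 0 and 5 above. At an unadjusted p under 0.05, 12 were below and 3 above 0. Of 10 glucocorticoid targets, METTL7A (0.84) and GLUL (0.69), glutamine synthetase, were higher. STRA6, the receptor for retinol transport, was higher by 0.82 ± 0.062 (SE), as the single call of 12 retinoid and AhR targets. Of 40 lysosome and autophagy genes, CTSF, cathepsin F, was higher (0.58) and ATP6V0D2, a subunit of the proton pump, lower (-0.99). SNHG15, a noncoding RNA with a short life, was the single call of 11 RNA quality and nuclear noncoding RNAs (-0.53), and it was at -0.48 without crXCR1 replicate 3. The median of these 11 was -0.19 on the log2 scale, with 8 below 0, 7 of them at an unadjusted p under 0.05, and in 6 the libraries of the third experiment lay below all others. The part of RNA quality in the other results was not tested.

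Dynein-1 is the motor whose regulation the study addressed. Its list held a smaller share of higher calls than the 7.35% of all tested genes. Of 30 tested members of dynein-1, dynactin and their regulators, 1 was called, DYNC1I1, the intermediate chain typical of neurons, at 5.58, 4.70 and 6.15 CPM against 2.79 to 3.42 CPM with a median of 3.02 CPM (log2 fold change 0.83 ± 0.092 SE, edgeR adjusted p = 4.75e-06). DYNC1I2, the intermediate chain of most cells, was at 96.05, 93.4 and 59.1 CPM against 54.7 to 103 CPM with a median of 90.9 CPM, and the difference of 0.036 ± 0.045 (SE) had an edgeR adjusted p of 0.548. PAFAH1B1, which encodes LIS1, was at 81.7, 80.3 and 53.9 CPM against 54.3 to 87.5 CPM with a median of 84.5 CPM (-0.066 ± 0.039, edgeR adjusted p = 0.186). For both genes the crSUGP1 library was the lowest of the third experiment, as in the first and second. XIRP1, an actin-binding protein of muscle, differed by -0.46 ± 0.13 (SE, edgeR adjusted p = 0.00705), under the fold threshold, and by -0.59 without crSUGP1 replicate 3, where it was called.

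Markers of other cell types were called in both directions, beside 7.35% higher and 3.16% lower calls over all tested genes. Of 14 leukocyte markers 7 were tested and 1 was called, CD68, a lysosomal protein also found outside leukocytes, at 17.01, 14.95 and 14.6 CPM against 26.7 to 30.6 CPM with a median of 27.1 CPM (log2 fold change -0.84 ± 0.047 SE, edgeR adjusted p = 2.33e-08). The list summed to 33.5 to 36.1 CPM in the third experiment against 48.9 to 52.7 CPM, a difference that lay mostly in CD68. CD3E, a subunit of the T cell receptor complex, had 0 counts in every library. Of 10 tested epithelial markers KRT14 was higher, at 10.3, 9.64 and 8.96 CPM against 3.17 to 4.77 CPM with a median of 3.91 CPM (log2 fold change 1.30 ± 0.077 SE, edgeR adjusted p = 3.68e-08), and CDH1, E-cadherin, lower (-0.56). CDH1 was at -0.45 without crSUGP1 replicate 3. The epithelial list summed to 1482 to 1526 CPM against 1574 to 1840 CPM. Of 11 endothelial and perivascular markers, KDR (1.26) and PDGFRB (0.76) were higher and TIE1 (-1.13) lower, with sums of 358 to 403 CPM against 367 to 441 CPM. PDGFRB, the PDGF receptor of mesenchymal cells, was at 53.9, 52.9 and 58.96 CPM against 30.6 to 36.8 CPM with a median of 32.4 CPM. Of 8 tested neural markers SOX2 and MAP2 were higher, SOX2 at 24.5, 18.2 and 16.1 CPM against 7.66 to 12.3 CPM with a median of 9.83 CPM (log2 fold change 0.96 ± 0.10 SE, edgeR adjusted p = 2.36e-06), with sums of 317 to 400.0 CPM against 299 to 341 CPM, and SOX10 had at most 9 counts. Of 11 tested muscle markers TNNC1, TNNT2 and DES were higher (0.74, 0.62 and 0.87), with sums of 189 to 242 CPM against 176 to 189 CPM, and MYOG had 0 counts in every library. Among 29 genes of cell contact 3 were higher, a share near that of all genes, and 3 lower, or 1 without crSUGP1 replicate 3. PCDH1 and CDH6, cadherins, were higher by 0.92 and 0.86. CD44, the hyaluronan receptor, was at 131, 111 and 134 CPM against 175 to 203 CPM with a median of 185 CPM (log2 fold change -0.59 ± 0.050 SE, edgeR adjusted p = 4.24e-07). The part of other cells in these differences was not tested.

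The difference of the third experiment depended on the guide in 3 genes (0.0142%) by edgeR's quasi-likelihood F test of the interaction, and 1843 genes reached an unadjusted p under 0.05. The 3 were AL121987.2, AC106820.6 and AC136469.2, each with an adjusted p of 0.0378, and AL121987.2 alone is among the 2215 calls. AL121987.2 was at 25.4, 26.3 and 15.4 CPM in NTC 3, crXCR1 3 and crSUGP1 3, and at 25.3 to 37.3 CPM with a median of 31.9 CPM in the other libraries. AC136469.2 was at 34.4, 36.1 and 20.6 CPM against 30.1 to 33.6 CPM with a median of 31.4 CPM, and AC106820.6 at 11.1, 11.03 and 6.70 CPM against 9.31 to 11.8 CPM with a median of 10.99 CPM. In all 3 the crSUGP1 library of the third experiment was the lowest of the 9, and that library has the fewest counts. Without crSUGP1 replicate 3 the difference of AL121987.2 was -0.19, and without crSUGP1 replicate 1 or crSUGP1 replicate 2 it was -0.48 or -0.44, all short of the fold threshold. The next in order, AC004854.2 and UTS2B, had the same pattern, at 17.2 and 6.82 CPM in crSUGP1 3, and were not called. Each of the 5 overlaps a protein-coding gene on the opposite strand (PEA15, CCNF, HNRNPM, PURB and CCDC50, in the order named), so that reads of the 2 genes cannot be told apart if strand was not used.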

How the data were processed

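U-2 OS cells with Cas9 mRNA and the NTC, crXCR1 or crSUGP1 guide were sequenced in 3 experiments, with 1 library per guide in each, from polyA RNA as paired reads. The authors trimmed reads (Trim Galore 0.6.7, cutadapt 2.4), aligned them to GRCh38 (STAR 2.7.9a) and deposited raw counts per gene, in which SeqMonk had summed the read pairs on its exons. Use of strand is not given in the sources used here. The table has 38179 rows. Of 51 names listed more than once, 2 identical and 31 empty repeats were dropped and 19 names were kept as separate rows. Genes with log2 CPM over -2 in at least 1 library, 21071 in all, were tested with edgeR 4.0.16 in R 4.3.3 (TMM, quasi-likelihood, guide and experiment 3 against the rest as terms, 5 residual degrees of freedom). Experiments 1 and 2 were also fitted as separate terms, and the interaction with the guide was tested by an F test. SEs are the log2 fold change divided by the square root of F. Single values were compared by exact permutation within guides, two-sided.

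Genes were named by rule: the targeted and dynein genes, the 15 highest and 15 lowest called genes of at least 1 CPM with separate libraries, up to 4 called genes per list by size, the 10 most abundant called genes and the 5 lowest interaction p-values. Other names are marked as chosen after their values were seen. The comparison and the 41 gene lists were chosen with earlier results of these data known. Libraries with one number were checked for pairing: their deviations from the guide means correlated at 0.483 to 0.893 in 9 pairs, and those of different numbers at -0.843 to 0.642 in 18. Replicate pairs differed by more than sampling noise (chi-square per gene 5.90 to 57.5), so each library counts as 1 sample. Motifs were searched in the 250 bases before RefSeq starts. DESeq2 1.42.0, limma 3.58.1, other scalings, filters and left-out libraries were alternatives. Of 144 called genes chosen by rule or, in part, after their values were seen, 47 overlap a gene on the opposite strand and 11 one on the same strand. The scripts were tested on simulated data.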

Additional observations from a re-analysis of the deposited data

Results flagged for a closer look

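Among the 6 libraries of experiments 1 and 2, 6 of 167 values checked had 1 library far from the others by Dixon's criterion, and chance flags about 1 group in 20. The values checked were those of named genes and of library measures such as total counts. FOLR1 was at 1.13 CPM in crXCR1 2 against 0.56 to 0.642 CPM in the other 5. ABCG1 was at 5.47 CPM in NTC 2 against 6.21 to 6.63 CPM. SMAD6 was at 34.9 CPM in crXCR1 2 against at most 29.9 CPM. PDGFRB was at 36.8 CPM in crXCR1 2 against 30.6 to 32.7 CPM. DES was at 0.296 CPM in NTC 2 against 0.14 to 0.186 CPM. ODC1 was at 542 CPM in NTC 2 against 433 to 462 CPM.

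For 3 genes the difference between experiment 3 and the others depended on the guide by edgeR's interaction test. AL121987.2, AC106820.6 and AC136469.2 each had an adjusted p of 0.0378, and in each the crSUGP1 library of experiment 3 was the lowest of the 9. The overlapping genes on the opposite strand and the depth of that library are given with their values above, and their part was not tested.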

How the results depend on the processing

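All alternatives kept more higher than lower calls, apart from leaving out the fold threshold, which gave 9353 genes (4619 higher and 4734 lower). Testing the fold threshold itself (glmTreat) gave 698 (501 higher, 197 lower), and a filter of 1 CPM in 3 libraries gave 1347 (984 higher, 363 lower) and no interaction gene. Leaving out single libraries gave 2009 (without crXCR1 replicate 1) to 2363 calls, 1416 to 1651 higher and 593 to 712 lower. Same-numbered libraries deviated together, and the fit with the replicate block, the 3 experiments as separate terms, gave 1572 higher and 659 lower and changed no call of a named gene. DESeq2 gave 1317 higher and 554 lower, and cyclic loess, chosen after seeing the data, 1191 and 779. Of 144 called genes chosen by rule or, in part, after their values were seen, 84 stayed called in each of the 24 alternatives that tested them. The glmTreat setting lost 59, and none reversed. Some of the 84 were not tested in every alternative, and the filter of 1 CPM in 3 libraries tested 129 of the 144. Of 43 list counts above 0, 36 moved by over 1.5 times in at least 1 alternative. Genes that were not called reversed in sign: over single left-out libraries AC136469.2 ranged from -0.2219 to 0.1566, AC106820.6 from -0.354 to 0.1371, AC004854.2 from -0.4664 to 0.0492 and UTS2B from -0.2613 to 0.1347, each positive without crSUGP1 replicate 3, and without all crSUGP1 libraries they were at 0.1481, 0.1288, 0.0410 and 0.1261, while against experiment 2 alone LCN2 was at 0.0457, CTSS at 0.2983 and MIR3142HG at 0.0757. The cause was not tested. Called genes are mostly of low level, where the libraries' depth of 68712738 to 107952835 counts limits precision most.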
